A study of Mus musculus with 10 samples.

Results

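Tph2, Gpr50, Slc5a7 and Atp1a4 were the 4 genes examined, out of 47937 genes counted in visceral white adipose tissue (WAT) of mice. They were picked from a list of symbols by a rule on the wild-type libraries alone: at most 3 counts in each library from standard diet (SD), and the largest rise in both libraries from high-fat diet (HFD). The wild-type values therefore chose the genes and are given as a description, without a test. The libraries from Mof heterozygous mice were not used by the rule.

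Bulk polyA mRNA-seq was made from C57BL/6 mice that were wild type (Mof+/+) or heterozygous for Mof (Mof+/-), the gene of a histone H4 lysine acetyltransferase. The SD groups were 8 weeks old, with 3 Mof+/+ and 3 Mof+/- libraries, and the HFD groups were 27 weeks old after 20 weeks on HFD, with 2 Mof+/+ and 2 Mof+/- libraries. These ages and times are those of the series' design text, and the study's methods give other ones for this tissue and diet. By the design text, diet and age differ together between the SD and HFD groups, so a difference between them cannot be told apart from age. Throughout, a level is in CPM, the reads of a gene over all reads counted in that library, scaled to the same total.

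Libraries held between 1044355 and 17171947 counts, and the shallowest by far was the library labelled HFD Mof+/- 1. Mof itself (Kat8) stood at 20.4 to 21.5 CPM in SD Mof+/+, 11.5 to 18.8 CPM in SD Mof+/-, 18.1 and 19.2 CPM in HFD Mof+/+, and 10.5 CPM in HFD Mof+/- 2. The library labelled HFD Mof+/- 1 held 20.1 CPM of Kat8 (21 counts, 95% interval 12.4 to 30.7 CPM), above both HFD Mof+/+ libraries. That interval covers the wild-type values and also the highest SD Mof+/- value, 18.8 CPM, so these counts cannot settle its genotype. In that library 6.66% of counts came from 12 skeletal muscle genes and 26.9% from mitochondrial genes, against 0.167% and 1.79% in HFD Mof+/- 2. Xist, the X-inactivation RNA of female cells, was at 46.1 to 139 CPM in the 3 SD Mof+/- libraries and at 0 in the other 7, whereas Ddx3y and Eif2s3y of the Y chromosome were at 0 in those 3 and at 27.8 to 100 CPM in the other 7. The SD Mof+/- libraries thus went against the study's statement that the mice were male. In comparing HFD with SD in Mof+/-, sex, diet and age cannot be told apart. SD Mof+/+ 2 stood apart in neuron markers, with a sum of 482 CPM over 11 genes against 34.6 to 146 CPM elsewhere. In the headings inside the count files the genotypes of the SD replicates numbered 3 are exchanged. SD Mof+/+ 3 is headed heterozygous and SD Mof+/- 3 control, and the sample labels were followed. By label, SD Mof+/+ 3 held 20.4 CPM of Kat8 and 0 of Xist, and SD Mof+/- 3 held 11.5 and 58.0 CPM.

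The 4 genes are known from tissues other than fat. Tph2 encodes the tryptophan hydroxylase of serotonergic neurons, which catalyses the rate-limiting step of serotonin synthesis, while its relative Tph1 serves mast cells, the gut and the pineal gland. Gpr50 is an orphan member of the melatonin receptor family that does not itself bind melatonin. Slc5a7 encodes the high-affinity choline transporter with which cholinergic nerve endings recover choline for acetylcholine, and Atp1a4 encodes the alpha subunit of the Na,K-ATPase that is typical of sperm. Adipose tissue of obese mice gains macrophages that gather around dying adipocytes and handle their lipid.

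The promoters of the 4 genes are shown because the rule chose the genes for a like rise in wild type, and they lie on different chromosomes. Each is the RefSeq window from 250 bases before to 50 bases after the gene's start on GRCm38.p6, on the gene's own strand: chr10:115184973-115185272 (minus strand) for Tph2, chrX:71663417-71663716 (plus) for Gpr50, chr17:54298985-54299284 (minus) for Slc5a7 and chr1:172258375-172258674 (minus) for Atp1a4. Capitals mark a TATA box (the letters TATAAA), a GC box (the letters GGGCGG) or a CCAAT box (which reads ATTGG on the opposite strand).
Tph2: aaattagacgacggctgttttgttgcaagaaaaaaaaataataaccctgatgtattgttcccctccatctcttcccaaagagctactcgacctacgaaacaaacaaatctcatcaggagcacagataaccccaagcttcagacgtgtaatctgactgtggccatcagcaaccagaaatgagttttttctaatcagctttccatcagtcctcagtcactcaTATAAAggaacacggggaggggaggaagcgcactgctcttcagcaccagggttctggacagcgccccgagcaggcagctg
Gpr50: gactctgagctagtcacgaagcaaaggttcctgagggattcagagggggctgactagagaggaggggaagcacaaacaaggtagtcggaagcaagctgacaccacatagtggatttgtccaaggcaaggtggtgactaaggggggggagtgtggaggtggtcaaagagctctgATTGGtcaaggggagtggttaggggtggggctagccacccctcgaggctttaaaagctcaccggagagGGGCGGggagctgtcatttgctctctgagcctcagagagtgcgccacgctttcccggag
Slc5a7: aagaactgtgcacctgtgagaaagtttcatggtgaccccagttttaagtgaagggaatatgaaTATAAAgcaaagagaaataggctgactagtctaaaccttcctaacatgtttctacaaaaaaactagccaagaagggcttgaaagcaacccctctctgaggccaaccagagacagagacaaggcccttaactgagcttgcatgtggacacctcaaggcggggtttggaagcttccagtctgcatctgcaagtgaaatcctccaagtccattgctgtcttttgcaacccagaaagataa
Atp1a4: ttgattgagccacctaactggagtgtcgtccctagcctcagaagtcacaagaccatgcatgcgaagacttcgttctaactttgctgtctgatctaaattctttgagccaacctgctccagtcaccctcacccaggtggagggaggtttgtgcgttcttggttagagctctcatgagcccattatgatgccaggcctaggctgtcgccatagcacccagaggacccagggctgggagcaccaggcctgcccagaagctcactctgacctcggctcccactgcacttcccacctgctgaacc

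The Tph2 window held a TATA box beginning 30 bases before the start, and the Slc5a7 window held one 187 bases before it. TATAAA on either strand occurred in 13.6% of 32851 RefSeq promoter windows of the same length. The Gpr50 window held a CCAAT box 77 bases and a GC box 9 bases before the start, motifs found in 37.4% and 35.7% of windows. The Atp1a4 window held none of these boxes. The short form of the cAMP response element (TGACG, in 20.8% of windows), the AP-1 site (TGANTCA, 7.81%) and the direct repeat that forms a PPAR response element (0.0396%), searched on both strands, were in none of the 4 windows. The E-box letters CANNTG were in all 4 windows and in 72.3% of all windows. GC content was 47.3% for Tph2, 57.3% for Gpr50, 44.7% for Slc5a7 and 55.7% for Atp1a4, around a median of 52.7%. None of the letters searched, apart from the common E-box, was thus in more than 2 of the 4 windows.

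Tph2 (ENSMUSG00000006764.8, GRCm38 chr10:115078641-115185022, minus strand, 13 exon blocks of 2879 bases in all) gave 0 counts in all 3 SD Mof+/+ libraries, each of which would allow up to 0.383 to 0.411 CPM (3 counts). In HFD Mof+/+ it stood at 71.2 and 80.5 CPM (1102 and 1289 counts), at least 185-fold higher against the floor of 0.411 CPM. In SD Mof+/- it was at 0.233, 0.480 and 1.49 CPM (4, 5 and 10 counts). All 3 of those libraries therefore held a few Tph2 reads where the wild type held none. In HFD Mof+/- it was at 14.4 CPM in the library labelled replicate 1 (15 counts, 95% interval 8.04 to 23.7) and at 110 CPM in replicate 2 (608 counts, 101 to 119). Both lay above every SD library, and the lower of them was 9.66-fold above the highest SD Mof+/- value. Tph2 was the most abundant of the 4 in HFD Mof+/+, also per length, at 26.3 CPM per kilobase of exon.

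Gpr50 (ENSMUSG00000056380.13, chrX:71663667-71669257, plus strand, 2 exon blocks of 3069 bases) was at 0 counts in all 6 SD libraries of both genotypes. In HFD Mof+/+ it stood at 49.2 and 37.6 CPM (762 and 602 counts), at least 106-fold higher. In HFD Mof+/- 2 it was at 11.9 CPM (66 counts, 9.23 to 15.2), below both wild-type libraries. The library labelled HFD Mof+/- 1 held 0 counts, and its exact interval reaches 3.53 CPM, under the interval of replicate 2. Gpr50 was the only one of the 4 genes at 0 in every SD library.

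Slc5a7 (ENSMUSG00000023945.6, chr17:54273590-54299034, minus strand, 10 exon blocks of 5644 bases) was at 0 counts in the 3 SD Mof+/+ libraries and at 0.0582, 0.576 and 0 CPM (1, 6 and 0 counts) in SD Mof+/-. In HFD Mof+/+ it stood at 53.5 and 27.5 CPM (828 and 440 counts), at least 98.5-fold higher. In HFD Mof+/- it was at 13.4 CPM (14 counts, 7.33 to 22.5) and 15.0 CPM (83 counts, 12 to 18.6). Both HFD Mof+/- libraries were above all SD and below both HFD Mof+/+ libraries. Slc5a7 was the gene on which the HFD Mof+/- pair differed least, and their intervals overlap.

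Atp1a4 (ENSMUSG00000007107.6, chr1:172223513-172258414, minus strand, 24 exon blocks of 3667 bases) was at 0 counts in SD Mof+/+. In HFD Mof+/+ it stood at 22.1 and 32.6 CPM (342 and 522 counts), at least 66.5-fold higher. In SD Mof+/- it was at 1.16, 1.25 and 6.10 CPM (20, 13 and 41 counts), so it was detected before HFD in these libraries, at a mean at least 6.90-fold above the wild-type floor. In HFD Mof+/- it was at 53.5 CPM (296 counts, 47.6 to 60) in replicate 2, above both wild-type libraries. The library labelled HFD Mof+/- 1 held 0 counts, with an interval up to 3.53 CPM, so the SD and HFD Mof+/- libraries overlapped.

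**Figure D1:**
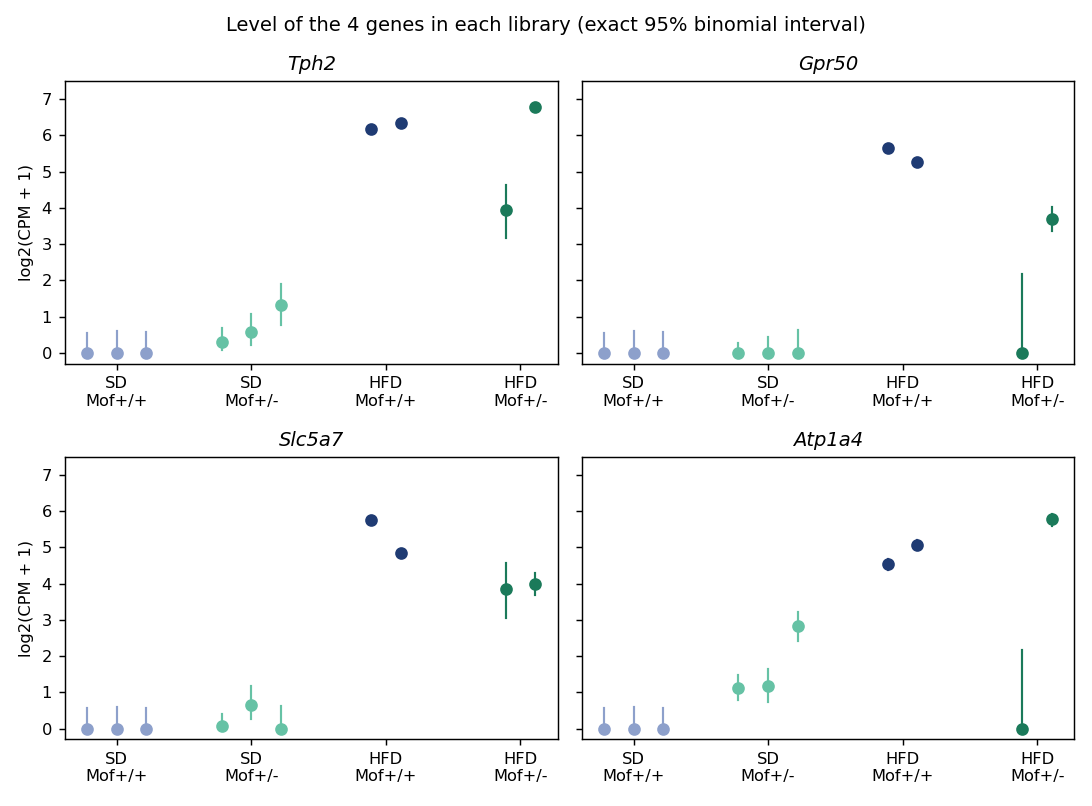
Level of Tph2, Gpr50, Slc5a7 and Atp1a4 in each of the 10 libraries as log2(CPM + 1) on the vertical axis, with libraries in replicate order within the 4 groups on the horizontal axis and bars for the exact 95% binomial interval of the count. The 3 SD Mof+/+ points are at 0 in each panel, the HFD Mof+/+ points are high, and HFD Mof+/- 1 is at 0 for Gpr50 and Atp1a4 only.

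The 4 genes did not move alike in the Mof+/- libraries. In the library labelled HFD Mof+/- 1, Tph2 and Slc5a7 had 15 and 14 counts, and Gpr50 and Atp1a4 had 0. In HFD Mof+/- 2, Tph2 and Atp1a4 were above both HFD Mof+/+ libraries, and Gpr50 and Slc5a7 were below both. Of the 104 genes that had at most 3 counts in each SD Mof+/+ library and at least 1 CPM in both HFD Mof+/+ libraries, 26 were above and 69 below both wild-type libraries in HFD Mof+/- 2. Tph2 and Atp1a4 were also the pair with reads in all 3 SD Mof+/- libraries, highest in replicate 3 for both. Those SD libraries are the ones with Xist, and the part of sex in these values was not tested. The 4 genes share no chromosome, and Gpr50 is the one on the X.

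The comparison of HFD with SD within Mof+/- uses libraries outside the rule. With edgeR's quasi-likelihood test and Benjamini-Hochberg adjustment over 13610 genes, Tph2 had a log2 fold change of 6.39 (SE 1.15, adjusted p = 0.150) and was the gene ranked 49 by p. Slc5a7 had a log2 fold change of 5.98 (SE 1.68, adjusted p = 0.403), and Atp1a4 one of 3.13 (SE 1.61, adjusted p = 0.645). Without HFD Mof+/- 2 the log2 fold change of Tph2 came to 4.38, and without HFD Mof+/- 1 or SD Mof+/- 3 to 7.25 and 7.43. That of Slc5a7 came to 8.11 without SD Mof+/- 2. That of Atp1a4 came to 4.12 without HFD Mof+/- 1 and to -7.71 without HFD Mof+/- 2. Gpr50 did not pass the filter on low counts and has no test. None of the genes thus passed, and neither did any other: 0 of 13610 genes (0%) were called, with 1166 at an unadjusted p under 0.05. By edgeR's test, 3.09% of tested genes were higher on HFD at an unadjusted p under 0.05, Tph2 and Slc5a7 among them. Both HFD libraries lay above all SD libraries in 9.88% of tested genes, which again held Tph2 and Slc5a7. Tph2 and Slc5a7 passed the filter on low counts through the HFD libraries where they were high, so that their place among the higher genes was in part fixed by the filter. DESeq2 on the same libraries called 402 genes, with Tph2 (adjusted p = 5.34e-06) and Slc5a7 (adjusted p = 0.00306) among them and Atp1a4 (adjusted p = 0.458) outside.

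The values of HFD Mof+/- 1 come from few reads, with high shares of muscle and mitochondrial genes. Of the 104 genes named above, 94 were at 0 in it, and 7 were above all SD Mof+/- libraries in both HFD Mof+/- libraries, among them Tph2 and Slc5a7. With muscle and mitochondrial genes left out of the library total, Tph2 there came to 21.6 CPM and Slc5a7 to 20.2 CPM, against 112 and 15.3 CPM in HFD Mof+/- 2. The order of the libraries for Slc5a7 thus depended on what was counted in the total, while for Tph2 replicate 2 remained higher.

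At the edge of the rule, Atp1a4 was the last of the 4 by the lower of its HFD Mof+/+ values (22.1 CPM), and Myh15, a myosin heavy chain, came next with 12.5 and 21.9 CPM. Myh15 was at 0 in all 6 SD libraries and in the library labelled HFD Mof+/- 1, and at 8.32 CPM in HFD Mof+/- 2. C130026I21Rik met the same rule, with 54.6 and 35.0 CPM in HFD Mof+/+ and 0 counts in SD Mof+/+, but is not on the list. It was at 41.6 to 90.9 CPM in SD Mof+/-, so it was not a gene without reads on SD. Of the 104 genes, 17 were at 0 in every SD Mof+/- library, as Gpr50 and Myh15 were.

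The relatives of the 4 genes showed other levels. Tph1 was at 0 in SD Mof+/+, at 1.55 and 4.0 CPM in HFD Mof+/+, at 1.82 CPM in 1 SD Mof+/- library and at 15.3 CPM in the library labelled HFD Mof+/- 1 but 0 in HFD Mof+/- 2, and did not pass in wild type (edgeR adjusted p = 0.0748). Per length it averaged 0.449 CPM per kilobase in HFD Mof+/+, against 26.3 for Tph2. The melatonin receptors Mtnr1a and Mtnr1b gave 0 counts in all 10 libraries. Per length, Atp1a4 averaged 7.46 CPM per kilobase in HFD Mof+/+. Slc5a7 in HFD Mof+/+, at 7.17 CPM per kilobase, was near the choline transporter-like gene Slc44a2 (5.90) and below Slc44a1 (14.8), both present in every library. Slc44a1 (log2 fold change 0.07, adjusted p = 0.845) and Slc44a2 (-0.62, 0.211) did not pass either.

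**Figure D2:**
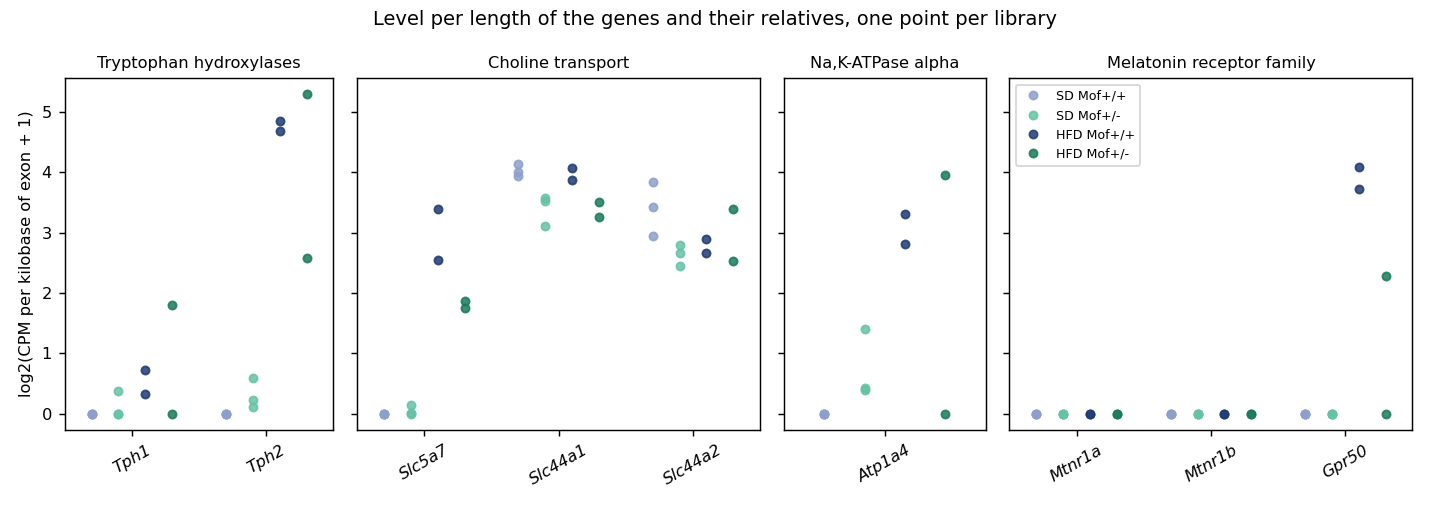
Level per length, log2(CPM per kilobase of exon + 1), of the 4 genes and their relatives, one point for each library and a colour for each of the 4 groups. Tph2, Gpr50, Slc5a7 and Atp1a4 are at 0 in SD Mof+/+, Slc44a1 and Slc44a2 are present in every library, and Mtnr1a and Mtnr1b are at 0 in all.

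Of the partners fixed for naming, those of serotonin and acetylcholine were at low levels or 0. Ddc, which turns the product of tryptophan hydroxylase into serotonin, was at 0.766 to 1.78 CPM in SD Mof+/+ and 0.187 and 0.388 CPM in HFD Mof+/+. The serotonin transporter Slc6a4 was at no more than 3.48 CPM and the vesicular transporter Slc18a2 at no more than 3.94 CPM in any library. Slc18a1, the other vesicular monoamine transporter, was at 0, 0 and 0.516 CPM in SD Mof+/+ and at 2.84 and 3.0 CPM in HFD Mof+/+ (edgeR adjusted p = 0.161). Genes that supply the hydroxylases' cofactor were present in fat on both diets, such as Qdpr at 95.5 to 122 CPM in SD Mof+/+ and 115 and 133 CPM in HFD Mof+/+. Chat, which makes acetylcholine, and Slc18a3, which loads it into vesicles, gave 0 counts in all 10 libraries. The beta subunit genes of the Na,K-ATPase did not pass in wild type: Atp1b1 (log2 fold change -3.06, adjusted p = 0.120), Atp1b2 (-2.43, 0.120) and Atp1b3 (0.34, 0.285). Atp1b1 and Atp1b2 were highest in SD Mof+/+ 2, at 111 and 99.3 CPM, the library highest in neuron markers. In SD Mof+/+ 3, where the neuron sum was 59.6 CPM, Atp1b1 was at 80.4 CPM and Atp1b2 at 12.9 CPM.

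The other genes of the pathway lists were tested between the diets in wild type, where edgeR's test called 9.75% of 14939 genes. Of 12 other genes of serotonin synthesis, transport and breakdown tested, 2 rose and 1 fell. Maoa, a monoamine oxidase that breaks serotonin down, rose by a log2 fold change of 0.92 (SE 0.218, adjusted p = 0.045), and Pcbd1, which regenerates the cofactor of the hydroxylases, by 2.53 (SE 0.447, adjusted p = 0.0208). Maob, the other monoamine oxidase, had a log2 fold change of -1.57 (SE 0.306, adjusted p = 0.0273). Maoa and Pcbd1 thus rose and Maob fell within one pathway. Of 17 other genes of choline and acetylcholine metabolism, 12 were tested, none rose and 2 fell. Chdh, the choline dehydrogenase of the path to betaine, had a log2 fold change of -3.49 (SE 0.222, adjusted p = 0.00178) and the cholinesterase Bche one of -1.62 (SE 0.366, adjusted p = 0.0396). Of 14 other Na,K-ATPase subunit and FXYD regulator genes, 12 were tested and 1 rose: Fxyd5, a regulator of the pump, by 1.89 (SE 0.459, adjusted p = 0.0474). Of 14 serotonin receptor genes 1 was tested, of 21 acetylcholine receptor genes 4, and of 12 other Slc5 genes 2, and none passed. No other gene of these lists was called in Mof+/- by edgeR's test. Chdh kept its call in wild type when any 1 library was left out. Maoa, Pcbd1, Maob, Bche and Fxyd5 each kept their direction but lost the call without SD Mof+/+ 1, HFD Mof+/+ 1 or HFD Mof+/+ 2, with adjusted p between 0.244 and 0.344 in edgeR's test without the last. Maoa, Bche and Fxyd5 also lost it without SD Mof+/+ 2, and Maoa without SD Mof+/+ 3, so that Maoa was called only with all 5 libraries. Without SD Mof+/+ 3 the log2 fold change of Fxyd5 came to 2.53.

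In the genome, neighbours that moved were found beside Atp1a4. Around Tph2, Gpr50 and Slc5a7 none of the 12 neighbours (a pair on each side) passed in wild type. The nearest to Tph2 was Tbc1d15, 12849 bases away, with a log2 fold change of 0.09 (adjusted p = 0.823). Around Atp1a4, 3 neighbours rose: Casq1, 3644 bases away and the calsequestrin of skeletal muscle, by 6.01 (SE 1.32, adjusted p = 0.0372), Igsf8, 3226 bases away, by 1.04 (SE 0.225, adjusted p = 0.0347), and Pea15a, 16708 bases away, by 0.97 (SE 0.184, adjusted p = 0.0255). Casq1 itself was at 8.85 and 7.87 CPM in HFD Mof+/+ and at most 0.383 CPM in SD Mof+/+, and so came within the count limit of the rule, at rank 10. Without SD Mof+/+ 1, HFD Mof+/+ 1 or HFD Mof+/+ 2 the calls of Casq1, Igsf8 and Pea15a were lost (those of Casq1 and Igsf8 also without SD Mof+/+ 2). Without HFD Mof+/+ 2 their log2 fold changes came to 6.10, 0.86 and 0.95. Without SD Mof+/+ 1 that of Casq1 came to 9.65. In wild type none of the 5 skeletal muscle genes tested passed, and in the library labelled HFD Mof+/- 1, where muscle genes were high, Casq1 was at 720 CPM and Atp1a4 at 0. In Mof+/- none of these neighbours passed edgeR's test.

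**Figure D3:**
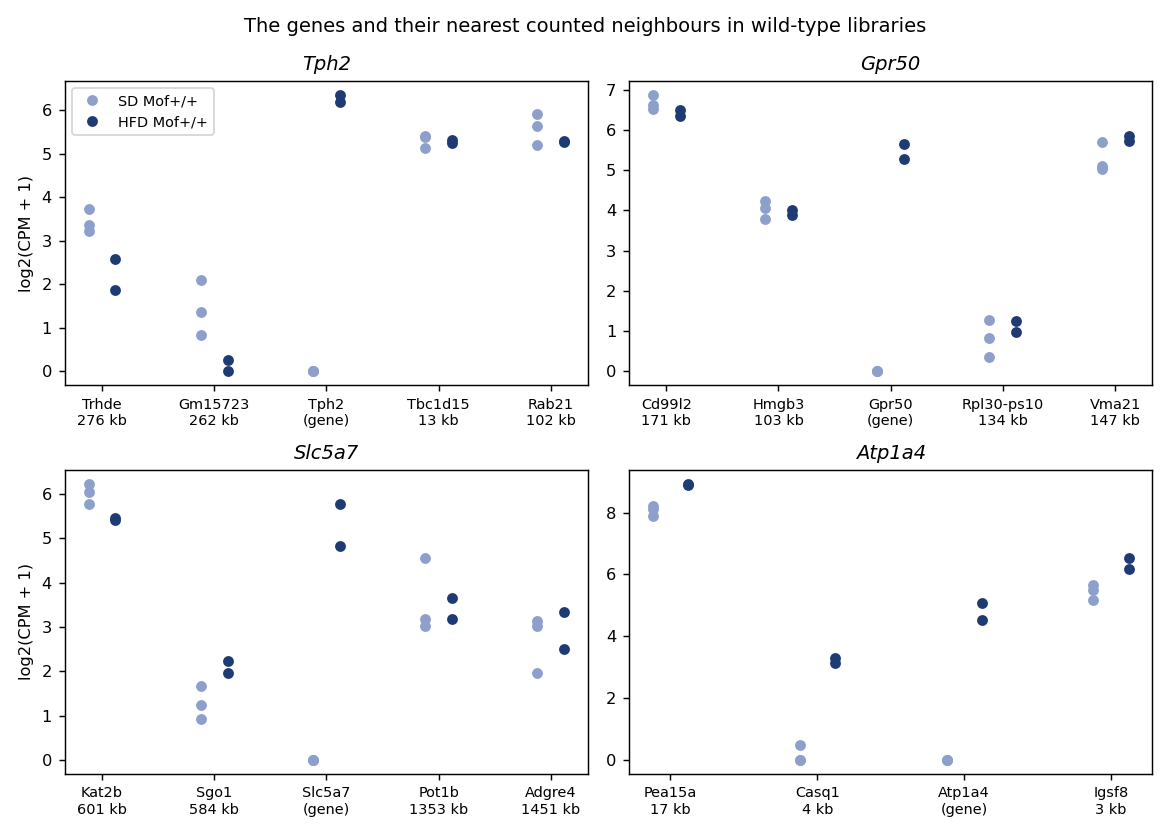
Level as log2(CPM + 1) of each gene and its nearest counted neighbours in order of position, in the 3 SD Mof+/+ (light) and 2 HFD Mof+/+ (dark) libraries, with the distance from the gene in kilobases under each name. Casq1, Igsf8 and Pea15a beside Atp1a4 are higher on HFD, while the levels of Hmgb3 beside Gpr50 overlap between the diets.

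The transcripts were also compared with those of all other genes. Of the stretches of 100 bases in their transcripts, none was shared with another gene for Tph2, Gpr50 or Slc5a7. An antisense gene that overlaps Atp1a4, Gm37950, gave 0 counts in all libraries.

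The genes with the most similar profile over the 10 libraries were sought by the root mean square (RMS) difference of log2(CPM + 1), each gene centred on its mean, among 16226 genes. The 10 libraries share the diet and age groups, so any gene that follows diet or age will be near. For Slc5a7 the 5 nearest were Atp6v0d2 (RMS difference 0.659), Cd300c2 (0.725), Lgals3 (0.732), Saa3 (0.791) and Trem2 (0.839). Atp6v0d2, a subunit of the vacuolar proton pump of macrophages and osteoclasts, was at 2.04 to 3.01 CPM in SD Mof+/+, 199 and 304 CPM in HFD Mof+/+, and 74.7 and 73.8 CPM in HFD Mof+/-. Trem2, the lipid-sensing receptor of macrophages, and Lgals3, galectin-3, are likewise known from lipid-laden macrophages. Tph2 had Ubd (0.755), Saa3 (0.813), Atp6v0d2 (0.814), Slc5a7 (0.903) and Trem2 (1.08). Saa3, an acute-phase protein of fat and macrophages, was at 94.5 and 88.8 CPM in HFD Mof+/+ and 34.5 and 122 CPM in HFD Mof+/-, the same order of libraries in the Mof+/- pair as Tph2.

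Gpr50 had Myh15 (0.585), Hpgds (0.861), Nceh1 (0.987), F7 (1.01) and Lat2 (1.01). Hpgds, a prostaglandin D synthase, was at 4.11 to 8.00 CPM in SD Mof+/+, 69.9 and 104 CPM in HFD Mof+/+, and 9.58 and 45.9 CPM in HFD Mof+/-. The genes near Atp1a4 included Sfrp5 (0.741), Kcnj14 (0.871), Gm43069 (0.963) and Ms4a7 (0.986). Sfrp5, a secreted inhibitor of Wnt signalling made by adipocytes, was at 12.3 to 20.3 CPM in SD Mof+/+ and at 17.5, 59.4 and 181 CPM in SD Mof+/-. Like Atp1a4 it was highest there in replicate 3, and in HFD it was at 424 and 353 CPM in Mof+/+ and 35.4 and 369 CPM in Mof+/-. With the library labelled HFD Mof+/- 1 left out, Gpr50 and Slc5a7 were nearest to each other (0.275). The wild-type libraries that chose both genes are among those compared, so this nearness was in part fixed by the rule. Of the 5 genes, 4 stayed for Tph2, 3 for Slc5a7, 2 for Atp1a4 and 1 for Gpr50.

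**Figure D4:**
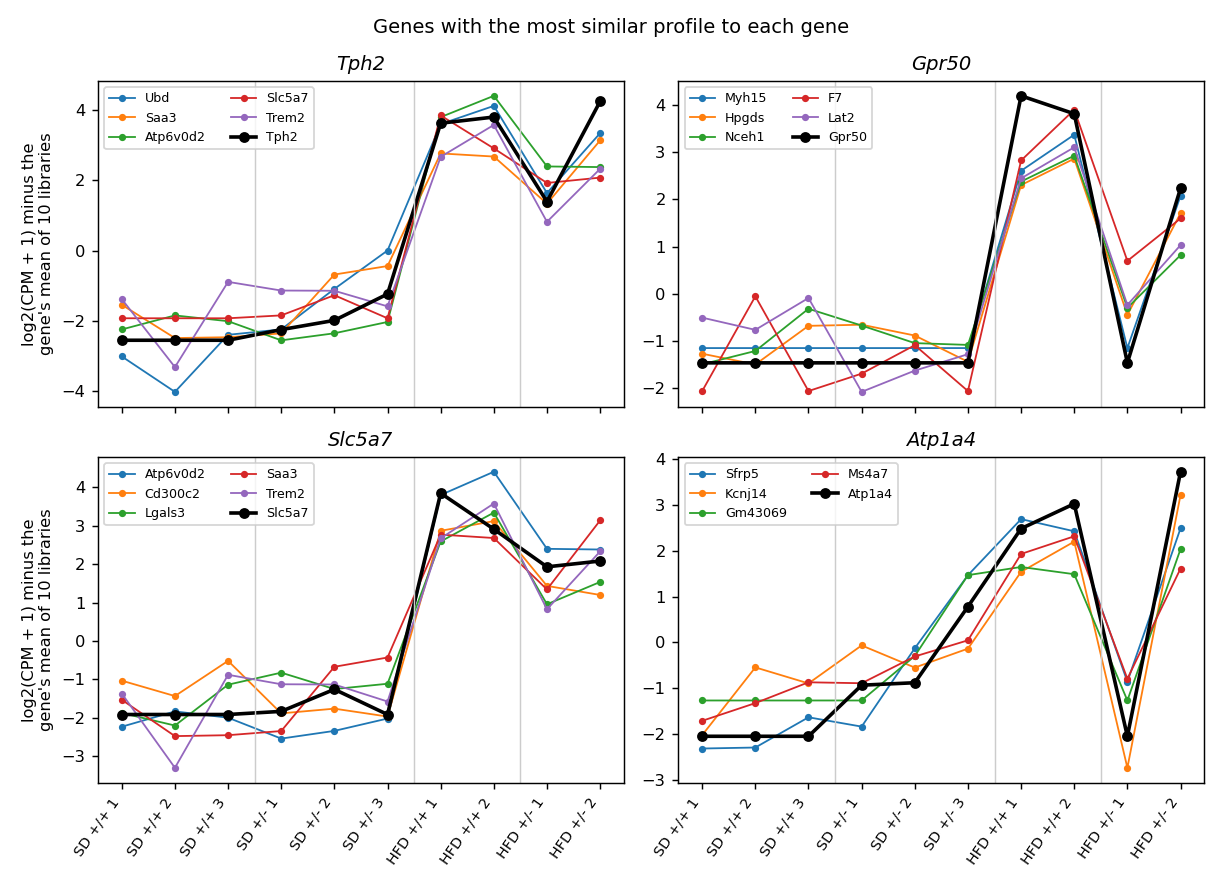
Profiles over the 10 libraries (horizontal axis) of each gene (black) and the genes nearest to it by RMS difference (colours), as log2(CPM + 1) minus the gene's mean. The nearest genes of Slc5a7 and Tph2 are low in all SD libraries and high in all HFD libraries, while those of Atp1a4 are low in the library labelled HFD Mof+/- 1.

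Markers of other cell types moved with diet as well. In bulk tissue, more cells of a type and more RNA per cell cannot be told apart. The 10 macrophage genes summed to 443 to 791 CPM in SD Mof+/+, 397 to 740 CPM in SD Mof+/-, 4345 and 6105 CPM in HFD Mof+/+, and 1018 and 1427 CPM in HFD Mof+/-, and 8 of 10 rose in wild type. The 9 mast cell genes summed to 23.7 to 68.1, 93.6 to 177, 355 and 449, and 68.9 and 262 CPM in the same groups, and 3 of 9 rose in wild type (Mcpt4, Tpsb2 and Cma1). Over all 14939 genes tested in wild type, edgeR's test called 9.75%, 900 of them up and 557 down. The part of either cell type in the levels of the 4 genes was not tested. Within the SD Mof+/- libraries the mast cell sum was highest in replicate 3, as Tph2 and Atp1a4 were, through Mcpt4, Tpsb2 and Cma1, while Kit and Cpa3 were lowest there.

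Some defining markers of the neurons that use Tph2 or Slc5a7 were at 0 and others were not. Of the 6 serotonergic neuron genes, Fev and Htr1a gave 0 counts in all libraries, Gata3, which other cells also express, reached 10.5 CPM, and the sum was 3.15 to 15.4 CPM in SD Mof+/+, 3.26 to 6.25 in SD Mof+/-, 4.81 and 9.56 in HFD Mof+/+, and 10.5 and 10.7 CPM in HFD Mof+/-. Of the 6 cholinergic neuron genes, Chat, Slc18a3 and Mnx1 gave 0 counts in all libraries, and the sum reached 0.874 CPM in HFD Mof+/+ and 6.51 CPM in HFD Mof+/- 2, all of it from Lhx8. Of 12 testis germ cell genes, 7 gave 0 counts in all libraries, among them Sycp1, the protamines Prm1 and Prm2, and Ldhc. Sycp3, a protein of the synaptonemal complex, made up nearly all of that list's sum in HFD Mof+/+ and rose in wild type by a log2 fold change of 4.26 (SE 0.534, adjusted p = 0.00838), from 1.02 to 4.66 CPM to 49.7 and 51.8 CPM. Sycp3 was at 12.3 to 21.9 CPM in SD Mof+/-, the libraries without Y-linked reads. The epididymis list summed to 8.69, 0 and 11.5 CPM in SD Mof+/+, to 0 in SD Mof+/- and to no more than 2.87 CPM in any HFD library.

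**Figure D5:**
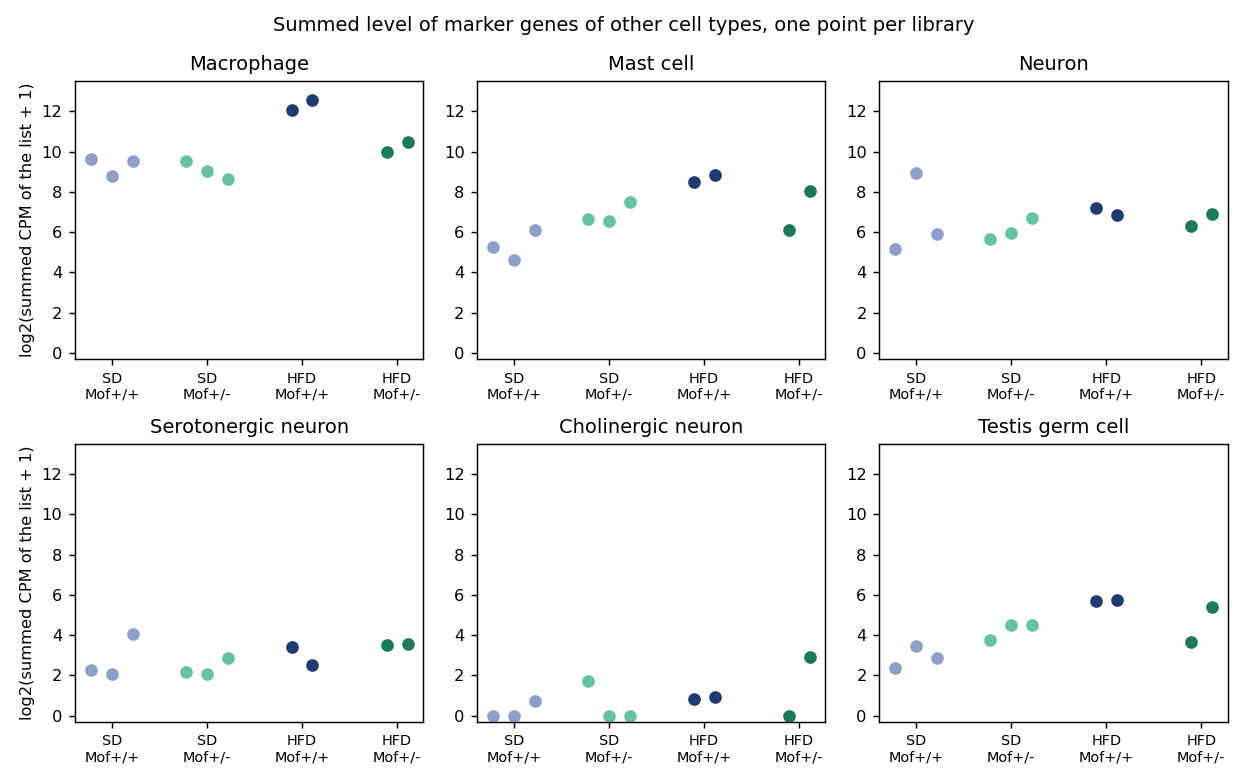
Summed level of 6 marker lists in each library, log2(summed CPM + 1), in replicate order within the 4 groups. The macrophage and mast cell sums are highest in HFD Mof+/+, the neuron sum is highest in SD Mof+/+ 2, and the serotonergic and cholinergic sums reach at most 15.4 and 6.51 CPM.

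The labelled tissue was borne out by the adipocyte markers, of which Adipoq, Plin1, Fabp4 and the other 7 summed to 15735 to 69981 CPM over the 10 libraries. Of these 10 genes 1 rose and 2 fell in wild type, where edgeR's test called 9.75% of 14939 genes (900 up and 557 down). Of 8 genes known to follow obesity in fat, 6 rose and 1 fell in wild type, with a median log2 fold change of 2.94 against -0.04 over all genes tested, and none was called in Mof+/- by edgeR's test.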

How the data were processed

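RNA from visceral WAT was made into TruSeq RNA v2 libraries, a kit that does not mark strand, and sequenced in pairs of 100 bases on a NovaSeq. Per the study's methods, reads were mapped with STAR to GRCm38 in the snakePipes workflow, and featureCounts of Subread 1.5.0-p1 gave the reads per gene, with DESeq2 1.26 as the study's test per the submitters' processing notes. The deposited files hold raw read counts per gene, 1 file for each of 10 libraries, with no normalization by the authors. Of 47937 gene identifiers, 47224 matched a symbol and position in GENCODE M21 with the version number dropped.

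CPM used the library total. Tests used edgeR 4.0.16 (TMM, filterByExpr, glmQLFit and glmQLFTest) on the groups compared only, with Benjamini-Hochberg adjustment over all genes tested and a threshold of 0.05. DESeq2 1.42.0 was an alternative, and the script was tested on simulated data. Intervals are exact binomial (Clopper-Pearson), and the floor is 3 counts per library, the highest of the group for a fold. Both cover counting error only. The labels call the libraries biological replicates, and no pair within a group was a duplicate.

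The 4 genes and all lists were chosen with earlier results of these data known. The text names the 4 genes, their closest relatives and partners, pathway genes past the threshold in either diet comparison, the 5 nearest profiles among genes with at least 50 counts, the 2 nearest such genes on each side, genes just below the rule's edge, and marker lists as sums. Singled out after their values were seen were Slc44a1, Slc44a2, C130026I21Rik, Sycp3, Slc18a1, Qdpr and the markers named within lists. Differences between the genotypes are given as values only. A few genes that these rules name are not reported here.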

Additional observations from a re-analysis of the deposited data

How the results depend on the processing

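Counts of called genes turned on the test and on single libraries. In Mof+/- the count of 0 became 402 with DESeq2, 429 without the filter on low counts, 26 with at least 10 counts in every library and 189 with all 10 libraries in one fit, and leaving out single libraries gave 0 to 2122: 12 without HFD Mof+/- 1 and 2122 without HFD Mof+/- 2. In wild type the count of 1457 became 2990 with DESeq2, 142 with all 10 libraries in one fit and 0 with the genotypes of the column headings (1404 at an unadjusted p under 0.05), and leaving out single libraries gave 64 to 2230: 250, 889 and 2230 without SD Mof+/+ 1, 2 and 3, and 249 and 64 without HFD Mof+/+ 1 and 2. Tph2 in Mof+/- passed with DESeq2 (adjusted p = 5.34e-06), without the filter (5.63e-10) and in the fit of all 10 libraries (0.0231). Slc5a7 passed with DESeq2 (0.00306) and in the fit of all 10 libraries (0.0441). That fit called 189 of 15897 genes. It takes its spread in part from the wild-type libraries by which the 4 genes were chosen, so it does not stand outside the rule. Gpr50, tested only without the filter, without HFD Mof+/- 1 and over all 10 libraries, had adjusted p of 0.0989, 0.238 and 0.0775. Leaving out single libraries took Atp1a4 from 4.12 without HFD Mof+/- 1 to -7.71 (log2, adjusted p = 0.309) without HFD Mof+/- 2, which leaves the HFD library where it was at 0. No gene of the 4 was left with at least 10 counts in every library. The 9 pathway and neighbour genes called in wild type kept their direction in all alternatives. They lost the call in 2 (Chdh) to 8 (Maoa) of the 12 or 13 that tested them, all 9 with the genotypes of the headings. With those genotypes the log2 fold change of Pcbd1 came to 0.63, against 2.53 by the labels. Replicate numbers shared between groups did not pair the libraries (correlations -0.04 to 0.03). With the replicate number as a block in edgeR's test the count in Mof+/- became 245, with Tph2 called (adjusted p = 2.79e-04), and that in wild type 1460. Replicate 3 exists on SD only and the numbers pair nothing, so the block leaves little to estimate the spread from. The call of Tph2 in that setting therefore adds no support. Depth limits HFD Mof+/- 1 most, where 3 counts are 2.87 CPM.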
